A study of Micropterus salmoides with 24 samples.

Results

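Messenger RNA from the head kidney of adult male largemouth bass, Micropterus salmoides, was compared between fish kept with Rodeo and fish kept with glyphosate. The 8 libraries were chosen by their titles, 4 labelled Rodeo and 4 labelled glyphosate, of 24 libraries in all. Both groups were exposed for 21 days at 10 mg/L of glyphosate, given as the product Rodeo in one group and as glyphosate in the other. Head kidney controls (4 libraries) had lived in clean water for the same time, and 12 libraries came from the trunk kidney under the same 3 treatments. Per the labels, each treatment had 4 tanks of 4 fish. Nothing in the labels ties a library to a tank, so the p-values below measure the spread between these libraries. Fish at the lower dose, 0.5 mg/L, were not analysed here. The question the comparison addresses is whether the commercial product and its active ingredient, at the same glyphosate concentration, left different transcript levels in this tissue.

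In bony fish the head kidney is the main site where blood and immune cells form, and it also holds the interrenal cells, which make cortisol. Glyphosate is a herbicide that blocks EPSP synthase, an enzyme of the shikimate pathway by which plants and many microbes make aromatic amino acids and which animals lack. Rodeo is a glyphosate product for use on water weeds, in which glyphosate is present as its isopropylamine salt. The form of glyphosate used in the other group is not stated in the labels.

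The deposited values are raw counts per contig, a transcript sequence assembled from reads. Of 78435 contigs, 70898 had a count in at least 1 of the 8 libraries and 34313 had one in all 8. Glyphosate libraries held 11155380 to 22210960 counts and Rodeo libraries 12794004 to 17422731. Matching these identifiers to gene names gave 0 hits. Contigs are therefore given by identifier, 2 in each direction, and neither cell type markers nor pathway lists could be examined. Contigs of one gene can share reads, so the value of a single contig is uncertain to that extent.

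Before the results, the labels themselves need a caution. Contigs that were either high or near absent in individual libraries of both tissues (64 on/off contigs, picked without regard to treatment) were compared between each head library and each trunk library. In 8 of 144 pairs the 2 libraries had the same on/off state in 96.9% to 100% of these contigs, while the other 136 pairs reached at most 85.9%. The 2 libraries carried the same treatment label in 0 of the 8 matched pairs. Of the 8 libraries compared here 5 were matched, namely glyphosate 1, 3 and 4 and Rodeo 1 and 3. Their trunk partners were labelled Rodeo 4, control 1, control 2, control 3 and glyphosate 1, in that order. Glyphosate 2, Rodeo 2 and Rodeo 4 had no match. The labels do not say whether the 2 tissues came from the same fish, and libraries are used here as labelled. Of the 8 matched pairs, 7 stood the same 6 places apart in the order of group and replicate, counted on from the last library to the first. If treatment labels of the head kidney were wrong, the head groups compared below would not be the treatments they are named for. Wrong labels in either tissue would change the meaning of the values set between the tissues. Whether any labels are wrong cannot be told from these files. Some results are also given without the matched libraries. Having no match does not show that a label is right, so those results do not test the labels.

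**Figure D1:**
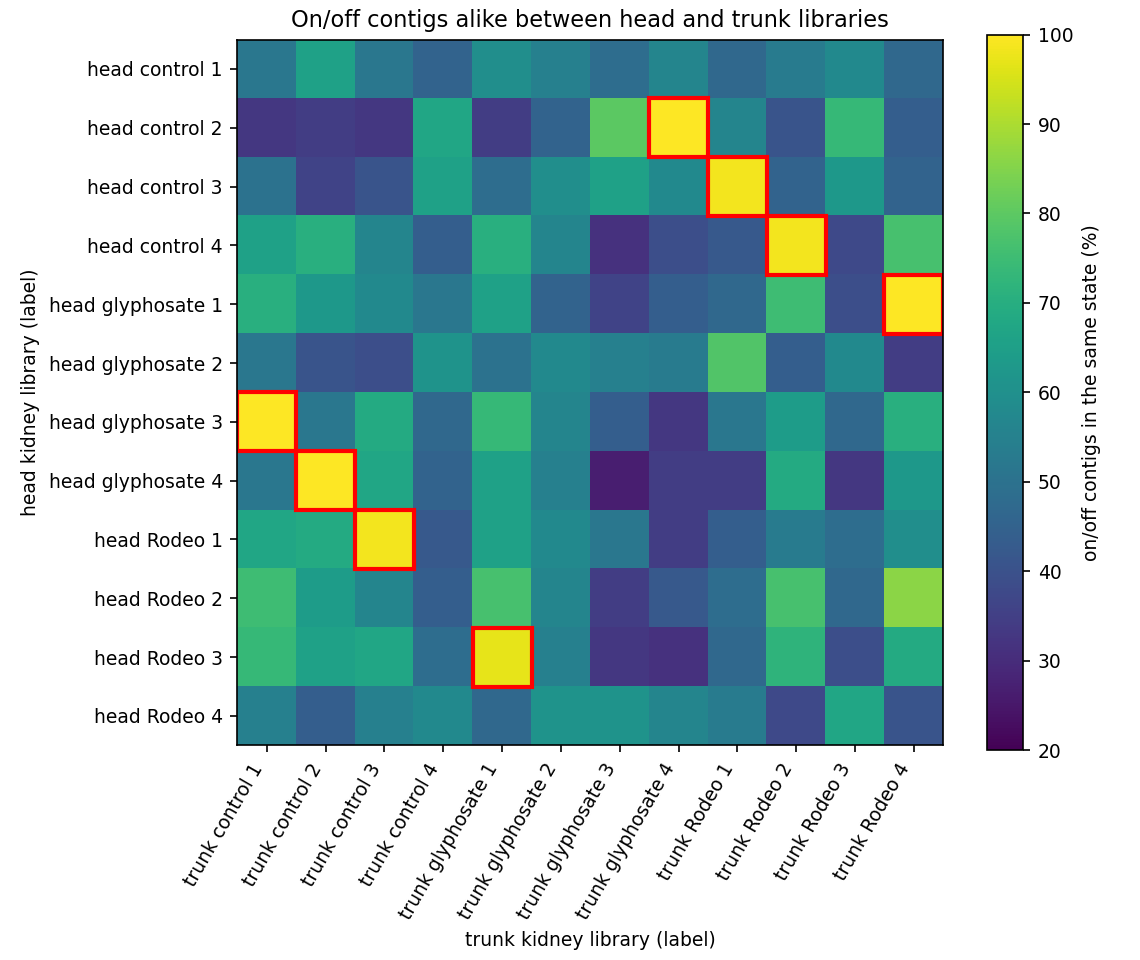
Share of the 64 on/off contigs in the same state, in percent, for each head kidney library (rows) and each trunk kidney library (columns), named by label. Red frames mark the 8 matched pairs, all at 96.9% or more, and 0 of the frames join libraries of one treatment label.

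No contig passed an adjusted p of 0.05 between the 2 products in the edgeR quasi-likelihood test. That was 0 of 38656 contigs tested (0%), with a smallest adjusted p of 0.225. The same test gave an unadjusted p under 0.05 for 3538 contigs (9.15%), of which 1935 were higher with Rodeo (5.01%) and 1603 lower (4.15%). All 4 Rodeo libraries lay above all 4 glyphosate libraries in 1590 contigs (4.11%) and below them in 1173 (3.03%), 2763 in all (7.15%). DESeq2 called 128 contigs (0.331%), 33 higher (0.0854%) and 95 lower (0.246%), whereas limma-voom called 0 and had 3756 with an unadjusted p under 0.05. With 1 head library left out, the 3538 contigs became 2048 of 40602 tested without Rodeo 1, the fewest, and 2113 of 40288 without glyphosate 3. The most were 4791 of 41339 without control 3. With counts scaled by the library total, chosen after seeing the data, 20.7% of the contigs with an unadjusted p under 0.05 were higher with Rodeo, against 54.7% with TMM scaling. Without the 5 matched libraries, controls kept, 1 glyphosate and 2 Rodeo libraries were left. The count of calls from that fit is therefore given only under the processing below and is not read as a result. In bulk tissue a lower level can stem from fewer cells of a type or from less RNA per cell, which cannot be told apart.

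Among the contigs that separated the groups most clearly, LMB_Assem.1991.C1 had the smallest p. On the scale of counts per 1000000 (CPM), it stood at 31.6, 26.9, 26.7 and 34.2 in glyphosate 1 to 4 and at 84.5, 91.5, 79.1 and 62.5 in Rodeo 1 to 4. Controls held 32.9, 46.2, 50.0 and 42.3 CPM. Each Rodeo library was above each glyphosate and each control library, while the glyphosate and control ranges overlapped. Group means were 79.4 ± 12.4 CPM with Rodeo and 29.9 ± 3.66 CPM with glyphosate (SD, n = 4 each), a log2 fold change of 1.41 with an SE of 0.21 and a 95% interval from 0.97 to 1.86. The edgeR adjusted p was 0.225 and the DESeq2 adjusted p was 0.000192. Against control the edgeR log2 fold change was 0.89 with Rodeo and -0.52 with glyphosate (adjusted p = 0.923 and 0.761), so the distance between the products was made up of one value on each side of the control level. These values share the 4 control libraries. Of 4 other contigs that carry the same assembly number, 2 were tested, and their log2 fold changes were 0.01 and 0.06.

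The other contig higher with Rodeo, contig23756, was one of the on/off contigs. It stood at 0, 0.769, 0.236 and 0 CPM in glyphosate 1 to 4, where 3 counts correspond to 0.137 to 0.269 CPM. In Rodeo 1, 3 and 4 it stood at 450, 317 and 243 CPM, but Rodeo 2 held 1.20 CPM. The controls held 0, 5.80, 1.16 and 1.91 CPM. The groups did not overlap, yet Rodeo 2 was closer to the glyphosate and control libraries than to the other Rodeo libraries. The edgeR log2 fold change of 9.82 (SE 1.62, 95% interval 6.37 to 13.27; adjusted p = 0.262) depends on the prior count because glyphosate libraries were at or near 0. DESeq2 gave an adjusted p of 0.000198, whereas limma-voom gave an adjusted p of 0.617 (unadjusted p = 0.146). In trunk kidney, on that tissue's scale, the contig stood at 165 CPM in control 3, 191 CPM in glyphosate 1, 177 CPM in glyphosate 3 and 232 CPM in Rodeo 3, while the other 8 libraries held no more than 5.53 CPM. High libraries thus occurred under each of the 3 treatment labels.

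LMB_Assem.12144.C1 was lower with Rodeo. It stood at 67.1, 46.9, 23.3 and 17.8 CPM in glyphosate 1 to 4 and at 3.09, 6.70, 6.28 and 6.75 CPM in Rodeo 1 to 4. Controls held 24.4, 36.3, 15.4 and 12.4 CPM. Each Rodeo library lay below each glyphosate and each control library, whereas the glyphosate libraries spread over a wide range that overlapped the controls. Group means were 5.71 ± 1.75 CPM with Rodeo and 38.8 ± 22.7 CPM with glyphosate (SD, n = 4 each), a log2 fold change of -2.76 with an SE of 0.458 and a 95% interval from -3.74 to -1.79. The edgeR adjusted p was 0.262 and the DESeq2 adjusted p was 1.35e-05. In trunk kidney this contig ranged from 11.3 to 369 CPM, and the same contrast there had a log2 fold change of -0.73 (edgeR adjusted p = 0.813).

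LMB_Assem.1388.C1 was also lower with Rodeo and belonged to the contigs at least 8-fold higher in head than in trunk controls. It stood at 39.2, 72.0, 24.5 and 25.99 CPM in glyphosate 1 to 4 and at 5.85, 21.7, 7.20 and 7.80 CPM in Rodeo 1 to 4. Controls held 24.1, 23.5, 18.99 and 28.5 CPM. Rodeo 2 stood just under the lowest glyphosate library and within the control range, while the other 3 Rodeo libraries were below every control. Group means were 10.6 ± 7.43 CPM with Rodeo and 40.4 ± 22.1 CPM with glyphosate (SD, n = 4 each), a log2 fold change of -1.92 with an SE of 0.429 and a 95% interval from -2.83 to -1.01. The edgeR adjusted p was 0.451 and the DESeq2 adjusted p was 0.0119. On a scale common to the 24 libraries it reached at most 1.91 CPM in trunk kidney, where it was not tested.

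**Figure D2:**
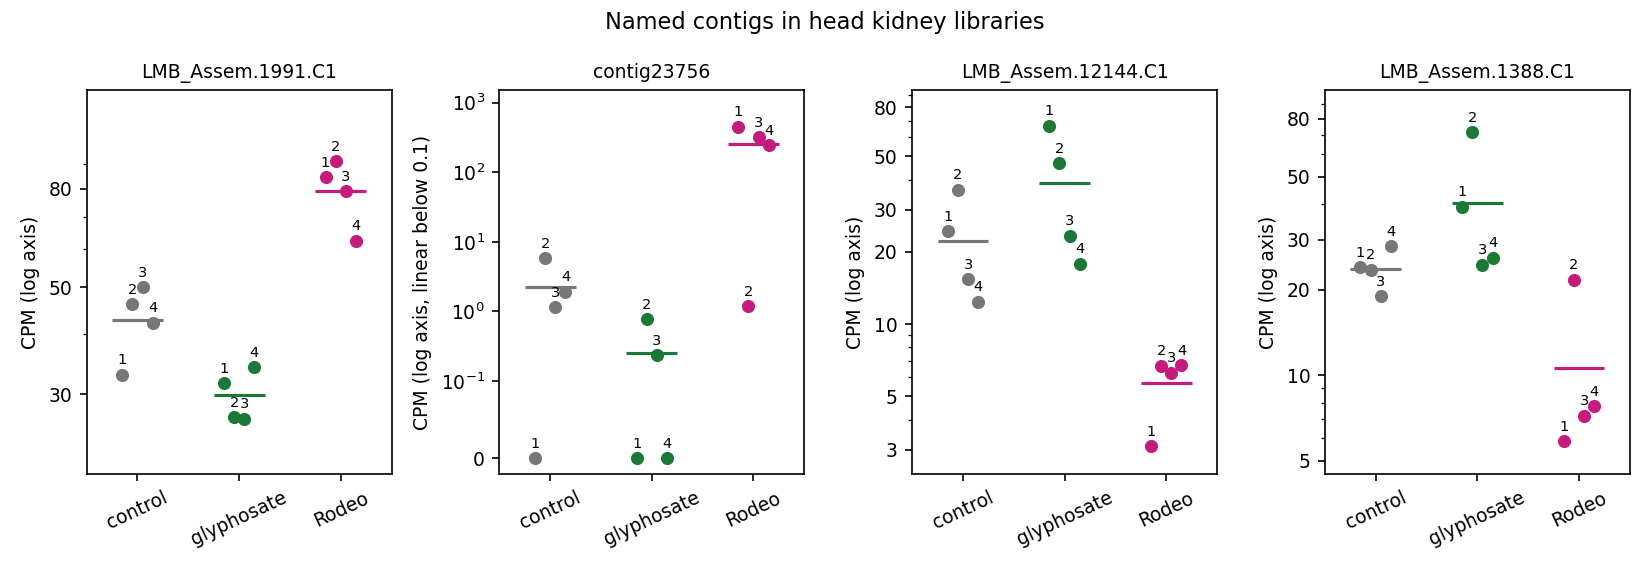
CPM of the 4 named contigs in each head kidney library by treatment label; points are libraries with their replicate number, bars are group means, and axes are logarithmic (linear below 0.1 CPM for contig23756). Rodeo libraries lie beyond all glyphosate libraries in each panel, with Rodeo 2 at 1.20 CPM in contig23756 and at 21.7 CPM in LMB_Assem.1388.C1, closest to the glyphosate group.

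The 4 contigs were named because the groups were apart and their p was small, so their separation is a description. Each kept its direction in every alternative fit it could be given, 25 for contig23756 and 26 for each of the others. They were chosen with the groups apart, so a kept direction largely follows from the choice. Among fits with more than 1 library per group, each passed the adjusted threshold with no filter and with DESeq2. LMB_Assem.1991.C1 and LMB_Assem.12144.C1 also passed without glyphosate 4, and contig23756 without Rodeo 2. In the other such fits none of them passed. Without the 5 matched libraries, controls kept, the log2 fold changes were 1.51 for LMB_Assem.1991.C1, 7.27 for contig23756, -2.81 for LMB_Assem.12144.C1 and -2.28 for LMB_Assem.1388.C1. These rest on 1 glyphosate and 2 Rodeo libraries that also served to choose the contigs, so no p is given for them.

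Direction was related to how abundant a contig was in control fish. The contrast sets Rodeo against glyphosate, but the control libraries also entered the filter, the scaling and the spread of that fit. Of the 2900 contigs at 6 or more log2 CPM (64 CPM) in head controls, 2511 had a higher fitted level with Rodeo (86.6%), with a median log2 fold change of 0.36, or 1.28-fold. Of the 21224 contigs under 2 log2 CPM (4 CPM), 36.2% were higher and the median was -0.25. Over all 38656 contigs 47.0% were higher and the median was -0.05. Between these limits the share moved up with level, from 44.5% at 2 to 4 log2 CPM to 68.1% at 4 to 6.

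An unadjusted p under 0.05 was found for 761 abundant contigs higher with Rodeo (26.2%, against 5.01% of all contigs) and 41 lower (1.41%, against 4.15%). The groups were apart for 582 above (20.1%, against 4.11%) and 7 below (0.241%, against 3.03%). Among the scarce contigs 860 were lower at that p (4.05%), which is about the share over all contigs, and 193 were higher (0.909%), which is below it. In this class the groups were apart for 814 below (3.84%, against 3.03%) and 241 above (1.14%, against 4.11%). The adjusted p of each of these contigs was above the threshold.

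Library by library, the median log2 deviation of abundant contigs from the mean of the 8 libraries was -0.09, -0.12, -0.28 and -0.21 in glyphosate 1 to 4. In Rodeo 1 to 4 it was 0.38, 0.15, 0.13 and 0.03. The groups did not overlap, and Rodeo 1 stood highest. For scarce contigs the medians were 0.09, 0.26, 0.27 and 0.16 with glyphosate and -0.32, -0.01, 0.06 and 0.03 with Rodeo. Here too the groups were apart, but Rodeo 3 and glyphosate 1 were close to each other, and Rodeo 1 stood far below the rest. No p is given for these medians, since the level classes were made with results of these data known.

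This tilt kept its direction in each fit that was run. The fits share these libraries, whose medians were already apart, so a kept direction largely follows from that. The median of abundant contigs ranged from 0.17 to 0.41 and that of scarce contigs from -0.43 to -0.22 over all of them. Scaling by the library total shifted the median of all contigs from -0.05 to -0.23. Relative to that median, abundant contigs stood at 0.40 under it and at 0.41 in the TMM fit, and scarce contigs at -0.20 in both. Without Rodeo 1 the abundant median was 0.26 with 83.1% higher. Without the 5 matched libraries, controls kept, it was 0.23 with 72.7% higher, and the scarce median was -0.23 with 42.1% higher. Those values rest on 1 glyphosate and 2 Rodeo libraries.

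In trunk kidney, with levels taken from trunk controls, the direction by level was the other way. There 25.5% of 2349 contigs at 6 or more log2 CPM were higher with Rodeo (median -0.29), and 60.0% of those under 2 (median 0.18). The trunk libraries were not apart, however, with abundant medians from -0.17 to 0.34 with glyphosate and from -0.26 to 0.13 with Rodeo. The difference of this tilt between the tissues was not tested.

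**Figure D3:**
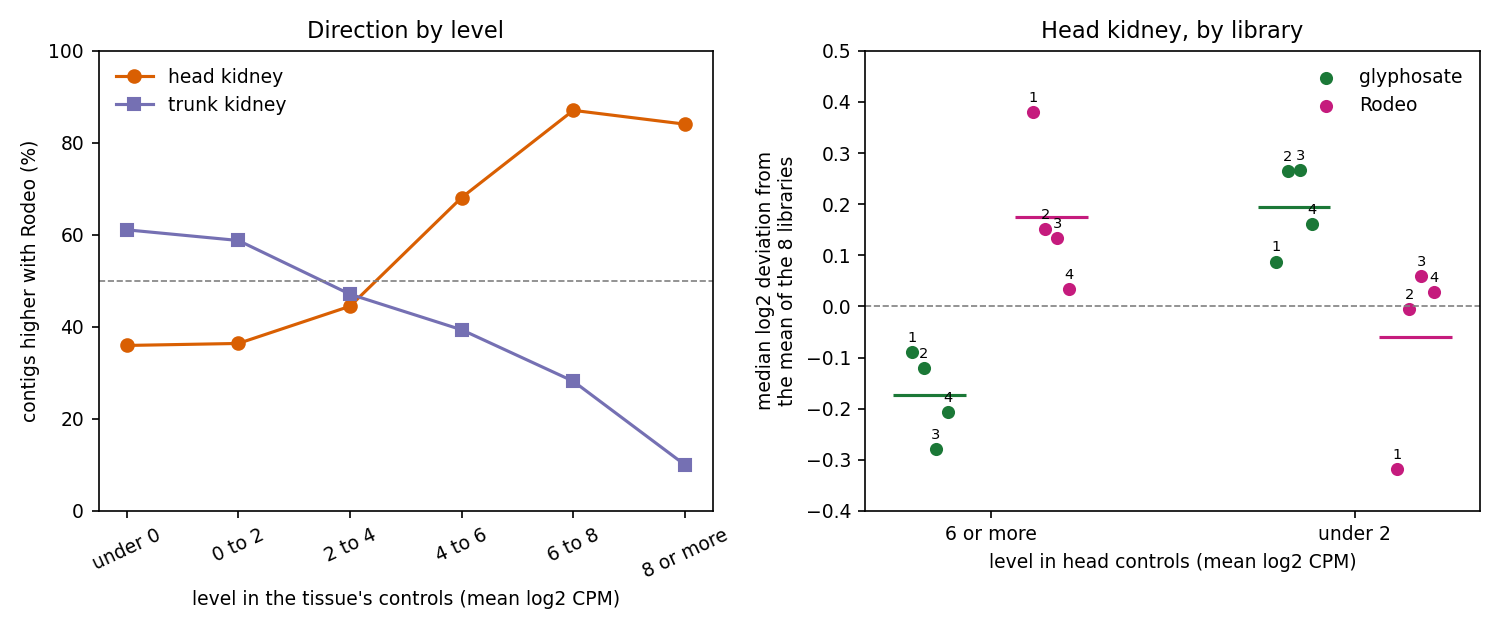
Left, percent of tested contigs with a higher fitted level with Rodeo than with glyphosate, by mean level in the controls of the same tissue; the dashed line marks 50%. Right, median log2 deviation from the mean of the 8 head libraries for contigs at 6 or more and under 2 log2 CPM, with points as libraries labelled by replicate and bars as group means. In head kidney the percentage runs from 35.96% to 87.0%, and in both classes the 2 groups of libraries do not overlap.

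The counts themselves showed the same leaning among scarce contigs. Contigs under 2 log2 CPM in controls took 4.15%, 6.36%, 4.07% and 4.50% of the counts in glyphosate 1 to 4, and 2.83%, 3.63%, 3.53% and 3.18% in Rodeo 1 to 4. The groups did not overlap, although controls, at 2.37% to 4.40%, covered the whole Rodeo range and part of the glyphosate range. The class was chosen by low levels in those controls, so their share is not an independent reference. Abundant contigs took 60.7% to 66.6% with glyphosate and 64.6% to 69.1% with Rodeo, which overlapped.

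The number of contigs detected was compared at an equal depth of 9000000 counts. It was 45188, 54138, 55865 and 55002 in glyphosate 1 to 4 and 45702, 51956, 50368 and 49800 in Rodeo 1 to 4. Glyphosate 1 stood below every Rodeo library and the other glyphosate libraries above them. Means were 52548 ± 4957 and 49457 ± 2664 (SD, n = 4 each), a difference smaller than the spread (exact permutation test, two-sided, p = 0.343, adjusted over 3 such values 0.557). Contigs with at least 5 counts at that depth numbered 36245, 39870, 37730 and 38716 with glyphosate and 32282, 36141, 35940 and 34523 with Rodeo. Here the groups were apart, with means of 38140 ± 1537 and 34721 ± 1779 (SD, n = 4 each; exact two-sided permutation p = 0.0286, not adjusted, the smallest that 4 against 4 can give). The 50 most abundant contigs took 19.9% ± 4.94 of the counts with glyphosate and 18.8% ± 4.35 with Rodeo (SD, n = 4 each; exact permutation p = 0.714 before and after adjustment).

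Contigs typical of the trunk kidney took a little more of the counts in glyphosate libraries, while their mean log2 level overlapped between the groups. A list of 5251 contigs at least 8-fold higher in trunk than in head controls was made from the control libraries alone. It took 1.05%, 1.49%, 1.36% and 1.21% of the counts in glyphosate 1 to 4, and 1.01%, 1.01%, 0.923% and 0.929% in Rodeo 1 to 4. The groups were apart, with glyphosate 1 close to the highest Rodeo libraries. The mean log2 CPM of the list was -1.59, -1.13, -0.74 and -1.22 in glyphosate 1 to 4 and -1.43, -1.40, -1.51 and -1.53 in Rodeo 1 to 4. By that measure glyphosate 1 stood below every Rodeo library, and the groups overlapped. Head controls held 0.766% to 1.07%, and trunk controls 18.96% to 26.5%, so each of the 8 libraries was far nearer to head kidney. Those controls made the list, so the distance between them follows from the rule. In head kidney 2160 contigs of the list were tested, with a median log2 fold change of -0.30. At an unadjusted p under 0.05, 38 were higher and 178 lower, together 10.0% against 9.15% of all contigs. Most of these were thus lower, whereas over all contigs 5.01% were higher and 4.15% lower at that p. In the list of 1301 contigs at least 8-fold higher in head controls, 1300 were tested, with a median of 0.10. At the same p 112 were higher and 48 lower, together 12.3%. Neither leaning was separated from the tilt by level. Without the trunk list the abundant median was 0.32 with 84.7% higher and the scarce median -0.28 with 34.5% higher, an alternative chosen after seeing the data.

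The 128 contigs that DESeq2 called differed by direction. The 33 higher ones had a median change of 1.39 on the log2 scale and a median level of 5.78 log2 CPM. In 31 of them (93.9%) the groups were apart. For the 95 lower ones the median size was 3.08 at a level of 1.94 log2 CPM, and the groups were apart in 31 (32.6%). Over all contigs tested the share apart was 7.15%. Since the calls rest on the same libraries, this separation is a description. The highest glyphosate value of these 95 was in glyphosate 1 for 36, glyphosate 2 for 33, glyphosate 3 for 24 and glyphosate 4 for 2. Of the 95, 25 (26.3%) were in the trunk list, which held 5.59% of all contigs tested. The part of trunk kidney tissue in these calls was not tested. In edgeR the smallest adjusted p among the 95 was 0.262. Since both tools read the same libraries, the calls of one are no separate support for the other.

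Glyphosate 4 and Rodeo 2 were more alike than either was to any library of its own group. Across 24463 contigs the Pearson correlation of log2 CPM had a median of 0.854 between glyphosate libraries (0.843 to 0.889), 0.897 between Rodeo libraries (0.877 to 0.912) and 0.872 between the groups. Contigs are not independent replicates, so this describes likeness alone. The library most like glyphosate 4 was Rodeo 2, and the reverse held as well. For Rodeo 2 the margin was narrow, since the highest correlation was 0.9132 between the groups and 0.9124 between Rodeo libraries. Its median correlation was 0.902 with its own group and 0.872 with glyphosate libraries. For glyphosate 4 the medians were 0.851 with its own group and 0.891 with Rodeo libraries. Glyphosate 4 was not alone in this. The medians were 0.848 and 0.869 for glyphosate 1, and 0.851 and 0.854, a narrow margin, for glyphosate 2. Glyphosate 3 had 0.882 with its own group and 0.876 with Rodeo libraries. The library most like glyphosate 2, and most like glyphosate 3, was control 2. Without glyphosate 4, edgeR called 20 of 40064 contigs tested, 1 higher and 19 lower with Rodeo. Contigs called in that way are those in which glyphosate 4 is unlike the other glyphosate libraries, so its values in them follow from the choice and are a description. Of the 19 lower ones, glyphosate 4 was the lowest glyphosate library in 19 and no higher than the highest Rodeo library in 18. Their median in glyphosate 4 was 2.09 CPM, whereas the median of means was 22.7 CPM in the other 3 glyphosate libraries, 4.57 CPM with Rodeo and 19.2 CPM in controls. Without Rodeo 2, edgeR called 2 of 41320 contigs tested, both higher with Rodeo, 1 of which was contig23756. Leaving out any one of the other 10 head libraries gave 0 calls.

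**Figure D4:**
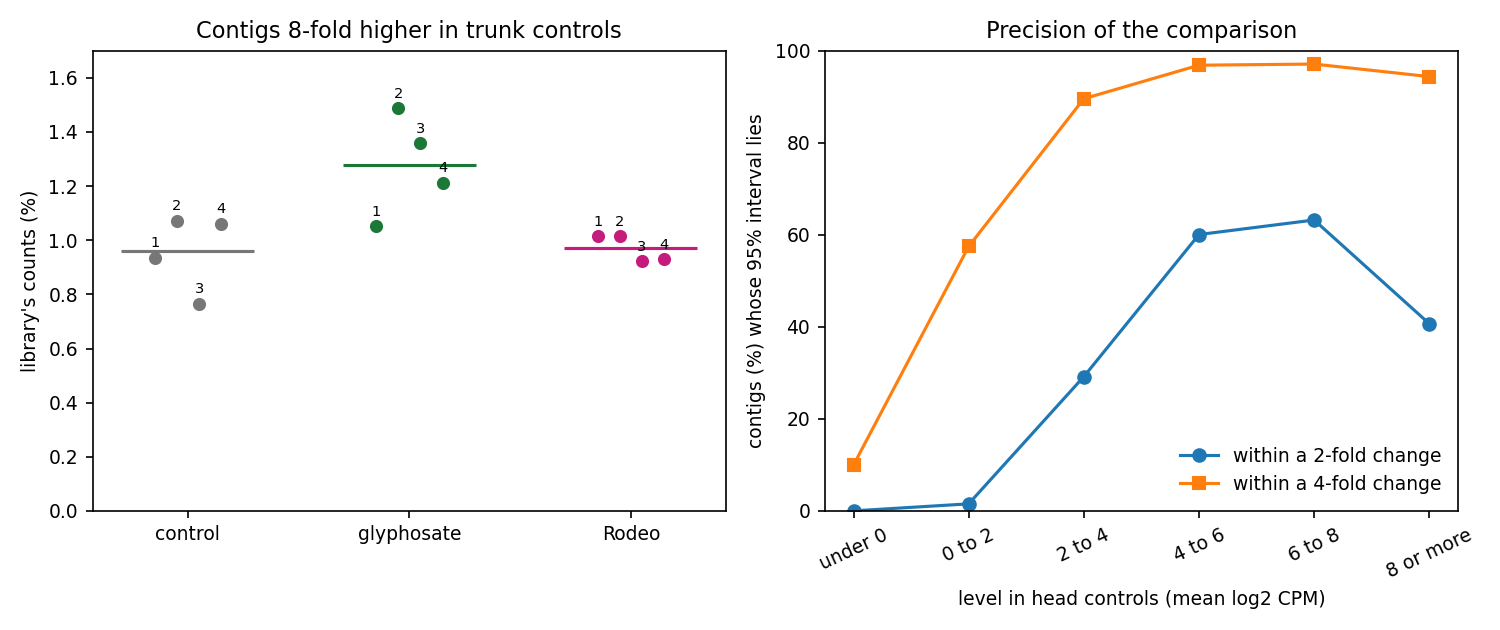
Left, percent of each head library's counts taken by the 5251 contigs at least 8-fold higher in trunk than in head controls, with points as libraries labelled by replicate and bars as group means; glyphosate libraries lie at 1.05% to 1.49% and Rodeo libraries at 0.923% to 1.01%. Right, percent of tested contigs whose 95% interval for Rodeo against glyphosate lies within a 2-fold or a 4-fold change either way, by mean level in head controls.

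**Figure D5:**
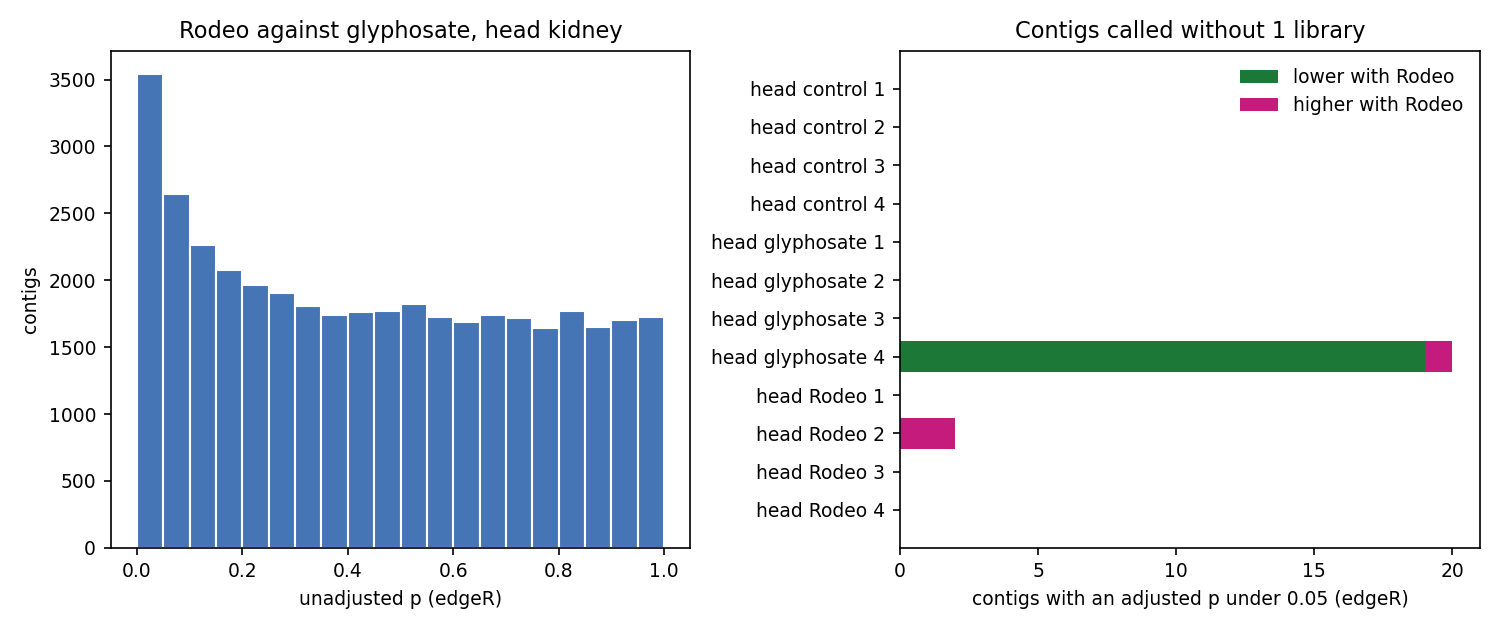
Left, number of contigs by unadjusted edgeR p for Rodeo against glyphosate in head kidney, in bins of 0.05; the first bin holds 3538. Right, contigs with an adjusted p under 0.05 when the named head library is left out, 20 without glyphosate 4, 2 without Rodeo 2 and 0 in each other case.

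A missing call does not show that the products acted alike, and the intervals give what these libraries can bound. The 95% interval of the log2 fold change lay within a 2-fold change either way for 8123 contigs (21.0%) and within a 4-fold change for 60.5%. Within 2-fold the share was 1.54% at 0 to 2 log2 CPM in controls, 29.2% at 2 to 4, 60.1% at 4 to 6, 63.2% at 6 to 8 and 40.7% at 8 or more. Most contigs were thus not bounded within 2-fold, scarce ones above all, and this held at 8 or more log2 CPM too. The biological coefficient of variation was 0.572. The median SD of log2 CPM was 0.436 in either exposed group and 0.570 in controls.

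Among contigs averaging 1 log2 CPM or more with an unadjusted p under 0.05, the larger changes leaned to lower levels with Rodeo. Of 3012 such contigs 1845 were higher and 1167 lower. Past 2-fold there were 371 higher and 879 lower, past 4-fold 46 and 208, and past 16-fold 9 and 54. The median level was 4.63 log2 CPM over the 3012, 2.64 past 2-fold, 2.44 past 4-fold and 3.42 past 16-fold. Contigs at 0 to 2 log2 CPM in controls had a median SE of 0.635, against 0.242 at 6 to 8. Scarcer contigs thus need larger changes to reach that p, and this leaning was not separated from the tilt by level. Of the 63 past 16-fold, 20 (31.7%) had a gap of more than 8-fold between neighbouring head libraries. The share was 0.764% among the 3012 and 0.515% among all contigs tested. Choosing by a large change favours contigs with such a gap, so this is a description. The groups were apart in 2 of the 63 (3.17%). They were apart in 46.1% of the 3012, 34.4% of those past 2-fold and 12.2% of those past 4-fold, against 7.15% of all contigs tested. The 3012 were chosen by their p for this same contrast, so these shares are a description too.

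The same contrast in trunk kidney also gave 0 adjusted calls in edgeR, of 43072 contigs (0%), with 3294 at an unadjusted p under 0.05 (7.65%) and the groups apart in 1805 (4.19%). Whether the difference between the products itself differed between tissues was tested over the 24 libraries, as head minus trunk. That fit treated the 24 libraries as independent. It left out any pairing of head and trunk libraries from one fish, which the labels do not give. No contig of 52407 passed in edgeR (0%, smallest adjusted p = 0.0620), while 5574 (10.6%) fell under 0.05 without adjustment and DESeq2 called 328. For LMB_Assem.1991.C1 the trunk log2 fold change was -1.08 (SE 0.604, adjusted p = 0.668), and the edgeR difference was 2.47 (SE 0.665, adjusted p = 0.237). Of 3345 contigs with an unadjusted p under 0.05 in head kidney that were also tested in trunk, 48.5% had the same direction there, against 46.6% of all 32535 contigs tested in both.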

How the data were processed

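The authors deposited raw read counts per contig for each library, whole numbers per the file contents, and contigs missing from a library were set to 0. Per the labels' protocols, 250 ng of total RNA was poly(A) selected and made into directional libraries with 10 amplification cycles. The submitters' processing notes name cutadapt, SAMtools, DESeq and edgeR and give no version. How reads were aligned and counted, whether strand was used and where the contigs came from is not given in the sources used. No molecular identifiers are mentioned, so limits for a count of 0 (3 counts) cover counting error only.

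Groups came from the sample titles. The 12 head libraries entered 1 fit in edgeR 4.0.16 under R 4.3.3 (TMM, filterByExpr, quasi-likelihood test, contrast Rodeo minus glyphosate, Benjamini-Hochberg adjustment, threshold 0.05). The difference between tissues used 24 libraries. DESeq2 1.42.0, limma-voom 3.58.1, other scalings and filters and fits with a library left out were alternatives. Adjusted p of DESeq2 was missing for 109 contigs. SE was the log2 fold change divided by the square root of F, and CPM are TMM-scaled within a fit. Scripts were tested on simulated data. Libraries of one group differed far beyond sampling noise (chi-square per degree of freedom 31.4 to 80.5 over 12 pairs).

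The 2 named contigs each way had the smallest p among contigs averaging 1 log2 CPM or more whose groups were apart. An on/off contig reached 1.5 log2 CPM in each tissue, with a gap of more than 3 between neighbouring libraries in each and at least 2 libraries on each side. A match needed 90% alike and each library to be the other's best. Trunk and head lists needed a difference of 3 in mean log2 CPM and a mean of at least 1 in the higher tissue. Libraries, lists and level classes were chosen with earlier results of these data known.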

Additional observations from a re-analysis of the deposited data

Results flagged for a closer look

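In groups of 4 libraries, 34 groups of values were examined for a library far from its neighbours relative to the range, and 7 stood out. Chance alone gives about 1 such group in 20 if values are normally spread. CPM of the named contigs, among them an on/off contig, need not be, so the 7 are a description.

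Among the named contigs, LMB_Assem.12144.C1 stood at 3.09 CPM in head Rodeo 1 against 6.28 to 6.75 CPM in the other Rodeo libraries. In trunk controls it stood at 369 CPM in one library against 56.2 to 80.2 CPM in the others. LMB_Assem.1388.C1 stood at 21.7 CPM in head Rodeo 2 against 5.85 to 7.80 CPM in the others. The on/off contig contig23756 stood at 165 CPM in trunk control 3 against at most 5.53 CPM, and at 232 CPM in trunk Rodeo 3 against 0.270 to 2.77 CPM.

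For whole libraries, head glyphosate 1 had 45188 contigs detected at equal depth against 54138 to 55865 in the other glyphosate libraries. The median log2 deviation of scarce contigs was -0.32 in head Rodeo 1 against -0.01 to 0.06 in the other Rodeo libraries.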

How the results depend on the processing

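The count of contigs called between the products in head kidney was 0 in edgeR. It was 143 of 72404 tested with no filter on low counts (30 higher and 113 lower with Rodeo), and 37 of the 143 were contigs the filter removes. With DESeq2 it was 128 of 38656. In the libraries matched to no trunk library (1 glyphosate, 2 Rodeo and 1 control) it was 291, 61 higher and 230 lower, with 1 residual degree of freedom and the lone glyphosate library assumed to vary like the rest. With the controls kept and the matched exposed libraries left out it was 61, 4 higher and 57 lower. The fits without the matched libraries rest on 1 glyphosate library, so their counts describe the processing and are not read as results. Leaving out each library in turn gave 0 to 20. Contigs with an unadjusted p under 0.05 numbered 5708 of 72404 tested with no filter, against 3538 of 38656 in the main fit. The cause of these moves was not tested.

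The difference in contigs detected was -3419 at 5 counts, and ranged from -5545 to -1840 with each library left out. The difference in the share of the 50 most abundant contigs, -1.09 percentage points, was reversed at 4.48 in the unmatched libraries and ranged from -2.998 to 1.10 with each library left out. The difference of effects between the tissues, 0 calls, was 328 with DESeq2 (183 higher and 145 lower) and 0 to 25 with each of the 16 glyphosate and Rodeo libraries left out, while controls were not left out of it.

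The replicate block gave 0 calls and 2845 contigs with an unadjusted p under 0.05. In a separate check for pairing, not the correlation of log2 CPM given above, r was -0.14 to 0.07 in 4 same-numbered pairs. It was -0.20 to 0.26 in 12 other pairs, and 2 libraries were best with their own number. The numbers were therefore not taken to pair the libraries.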

Other observations

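Head and trunk libraries with equal treatment and equal replicate number, 12 pairs, shared the state of a median of 43.8% of the on/off contigs.

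By identifier kind, an unadjusted p under 0.05 was found for 11.3% of LMB_Assem contigs, 6.09% of isotig contigs and 9.56% of contigs of the third kind. Contigs with a gap of more than 8-fold between neighbouring head libraries numbered 237, of which 199 were tested. At that p 4 were higher and 20 lower with Rodeo, together 12.1% against 9.15% of all contigs. Most of these were thus lower, whereas over all contigs 5.01% were higher and 4.15% lower.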
